A study of Homo sapiens with 48 samples.

Results

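Collagens are the triple-helical proteins from which the extracellular matrix is built, and the genes described here are every gene on the array whose symbol is COL, a number, A and a number. There were 43 such genes, read by 73 probes, among 20046 genes with a single symbol on the array. Of these, 25 genes, read by 31 probes, were above background on at least 4 of the 48 arrays and could be tested, against 11886 genes in all. The study asked how the loss of Hic-5 changes the response to glucocorticoid. Hic-5 is made from TGFB1I1, sits at focal adhesions and works with steroid receptors in the nucleus.

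All cells were U2OS, a human osteosarcoma line, in 1 clone that stably carried wild-type rat glucocorticoid receptor alpha (rat GRα), so each group shares that transgene and its clonal origin. The groups were cells transfected with siHic5_2, a single siRNA against Hic-5, cells transfected with a nonspecific siRNA (siNS), and cells with no siRNA (NI). Each was sampled with 0, 2, 4 and 24 h of dexamethasone, a synthetic glucocorticoid, which made 12 groups of 4 arrays on 6 slides. All wells were harvested together, with hormone given 2 days after transfection for the 24 h point and 3 days after it for the 2 and 4 h points. With 1 siRNA sequence, effects of the loss of Hic-5 and other effects of that sequence cannot be told apart. Whether the replicates came from separate cultures is not stated, so p-values reflect only how these arrays vary, part of which may be technical.

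A collagen molecule is 3 chains wound around each other, and each gene encodes a chain. Fibrillar collagens form the cables of bone, skin and tendon, collagen IV forms the sheet of basement membranes, collagen VI forms beaded filaments around cells, and the FACIT collagens (fibril-associated collagens with interrupted triple helices) sit on the surface of fibrils. Osteoblasts, the cell lineage of osteosarcoma, are known for secreting collagen I, and glucocorticoids are known to lower collagen synthesis in bone and skin. Levels below are background-corrected, quantile-normalized log2 intensities of the brightest probe of a gene, and levels of different genes are not compared because probes differ. A gene was called when its adjusted p (limma, Benjamini-Hochberg over all 11886 genes) was under 0.05. Array expression is measured per unit of RNA, so fewer expressing cells and less RNA per cell cannot be told apart.

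The siRNA was checked on its target first. TGFB1I1 stood at 5.99 to 6.75 in siHic5_2 cells before hormone, against 9.53 to 9.97 in siNS cells, and the groups did not overlap. The log2 difference was -3.41 at 0 h and -3.33 at 2 h, where 2 of 4 and 1 of 4 siHic5_2 arrays were above background. At the later times TGFB1I1 stood at least 10.6-fold (4 h) and at least 5.71-fold (24 h) lower. At each time an exact two-sided permutation test of 4 against 4 arrays gave p = 0.0286, the smallest that its 70 splits can give. "At least" marks a bound: in the lower group no array was above background, and its level was replaced by the dimmest signal that counts as above background. Across the arrays 31.7 to 38.3% of probes were above background, and the median standard error of a difference was 0.202 on the log2 scale.

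Markers of the labelled cell type were in part present. RUNX2, ALPL and SPARC were above background on all 48 arrays, while SP7, BGLAP and IBSP, later markers of osteoblasts, were not measured above background often enough to be kept. Of the fibroblast markers 4 of 5 were kept (DCN was not), of the epithelial markers 2 of 4 (CDH1 and KRT19 were not), of the endothelial markers 2 of 4 (PECAM1 and CDH5 were not), and of the blood markers on the array 0 of 3. The summed linear intensity of the 3 osteoblast markers was 3511 to 6322 in siHic5_2, 2932 to 5341 in siNS and 2877 to 5236 in NI arrays. That of the fibroblast markers was 3587 to 7093 in siHic5_2, 3255 to 6300 in siNS and 3412 to 6285 in NI arrays, and that of the epithelial markers was 281 to 676, 245 to 679 and 271 to 680 in the same order. By time the epithelial sum was 426 to 676, 416 to 676, 404 to 680 and 245 to 437 at 0, 2, 4 and 24 h, lower at 24 h with little overlap. For the endothelial markers it was 76 to 115 in siHic5_2, 82 to 225 in siNS and 87 to 228 in NI arrays. After 24 h of hormone KDR was at least 1.78-fold higher in siNS and at least 1.41-fold higher in NI cells. KDR was above background on no siHic5_2 array and on no siNS array before 24 h, so these calls partly follow from the filter. TEK, the other kept marker, went the other way in NI cells (at least 1.02-fold lower, adjusted p = 0.0141, limma) and was not called in siNS or siHic5_2 cells. Of the osteoblast markers, RUNX2 was lower with siHic5_2 at 0 h (-0.70, adjusted p = 0.0184, limma) and 4 h (-1.27, adjusted p = 3.54e-05, limma). SPARC was higher at 0, 2 and 24 h by 0.68 to 0.78. After 24 h of hormone in siHic5_2 cells the osteoblast markers split. ALPL was lower (-0.96, adjusted p = 0.000581, limma), RUNX2 was higher (0.80, adjusted p = 0.00453, limma) and SPARC was not called. Of the fibroblast markers, PDGFRB was higher with siHic5_2 at 24 h (log2 difference 1.56, adjusted p = 7.91e-07, limma) and PDGFRA lower at 0 h (-1.73, adjusted p = 0.00216, limma). After 24 h of hormone in siHic5_2 cells PDGFRA was higher (1.19, adjusted p = 0.0261, limma) and THY1 lower (-0.64, adjusted p = 0.0014, limma). PDGFRB and LUM were not called there. The part of these markers in the collagen results was not tested.

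The measured collagens covered 8 classes. Kept were 6 of 11 fibrillar collagens, 4 of 6 collagen IV chains, 3 of 6 chains of collagen VI and its relatives, 2 of 3 short-chain collagens, 6 of 10 FACIT collagens, 1 of 3 transmembrane collagens, both multiplexins, and COL7A1, the chain of the anchoring fibrils of skin. The 18 genes not kept were COL1A2, COL2A1, COL4A3, COL4A6, COL5A3, COL6A5, COL6A6, COL9A1, COL9A3, COL10A1, COL11A2, COL19A1, COL21A1, COL23A1, COL25A1, COL26A1, COL27A1 and COL28A1, each above background on 3 arrays or fewer. Several of them encode chains that are known to share a molecule with a measured gene. COL1A1, the main chain of collagen I, was above background on all 48 arrays, whereas COL1A2, the other chain of that molecule, was above background on 1 array at most. In collagen IX only COL9A2 of the 3 chains was measured, and COL4A4 was measured without its usual partner COL4A3. A probe that is not above background gives a bound on the signal only, so these genes may still be transcribed.

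With siHic5_2, individual collagens moved in opposite directions. The genes called higher and lower were 5 and 3 of 25 at 0 h, 6 and 3 at 2 h, 7 and 5 at 4 h, and 1 and 7 at 24 h. That is 32%, 36%, 48% and 32% of the collagens, against 25.9%, 25.8%, 30.3% and 29.7% of all genes tested. Of all genes, those called higher and lower were 13.8% and 12.1% at 0 h, 14.3% and 11.5% at 2 h, 16.3% and 14.1% at 4 h, and 15.8% and 13.9% at 24 h. The median log2 difference of the 25 genes was 0.02, 0.07, 0.07 and -0.17 at these times, and that of all genes lay between 0.01 and 0.03. COL3A1, COL4A4 and COL8A1 were lower at all 4 times and COL1A1 was higher at all 4, while COL4A1, COL6A3, COL7A1 and COL13A1 were higher at 0, 2 and 4 h. COL8A1 was above background on 1 of 4 siHic5_2 arrays at 0, 2 and 4 h and on none at 24 h. COL3A1 was so on none at 2 and 24 h, and COL4A4 on none at 0, 2 and 4 h. These 3 genes passed the filter mainly through control arrays. Their calls as lower, and their part in these counts, therefore partly follow from the filter.

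After hormone, few collagens moved early and many late. At 2 h 0 of 25 were called in siHic5_2, siNS or NI cells (limma; over all genes 2.89%, 4.83% and 2.97% were called), and at 4 h COL15A1 alone was called, in each state. Over all genes 11.1%, 8.19% and 8.82% were called at 4 h in these states, 5.16%, 4.28% and 4.47% of them higher. The 0 of 25 at 2 h is a result of this test at this spread: over all genes 1139, 1738 and 1211 had an unadjusted p under 0.05. At 24 h the numbers called higher and lower were 4 and 9 in siHic5_2, 6 and 10 in siNS and 5 and 8 in NI cells. That is 52%, 64% and 52% of the collagens, against 34.8%, 39.6% and 39.3% of all genes, of which those higher and lower were 17.8% and 17% in siHic5_2, 19.7% and 20% in siNS, and 18.6% and 20.7% in NI cells. The median log2 difference of the 25 genes was -0.43, -0.17 and -0.23 in these states, and that of all genes lay between -0.03 and 0.01. COL4A4, COL6A1, COL14A1 and COL15A1 were higher in all 3 states, and COL1A1, COL12A1, COL13A1, COL16A1 and COL22A1 were lower in all 3. COL14A1 was above background on 7 arrays and COL15A1 on 18, none of them without hormone. Both passed the filter only through hormone arrays, so their calls as higher, and their part in these counts, partly follow from the filter.

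**Figure D1:**
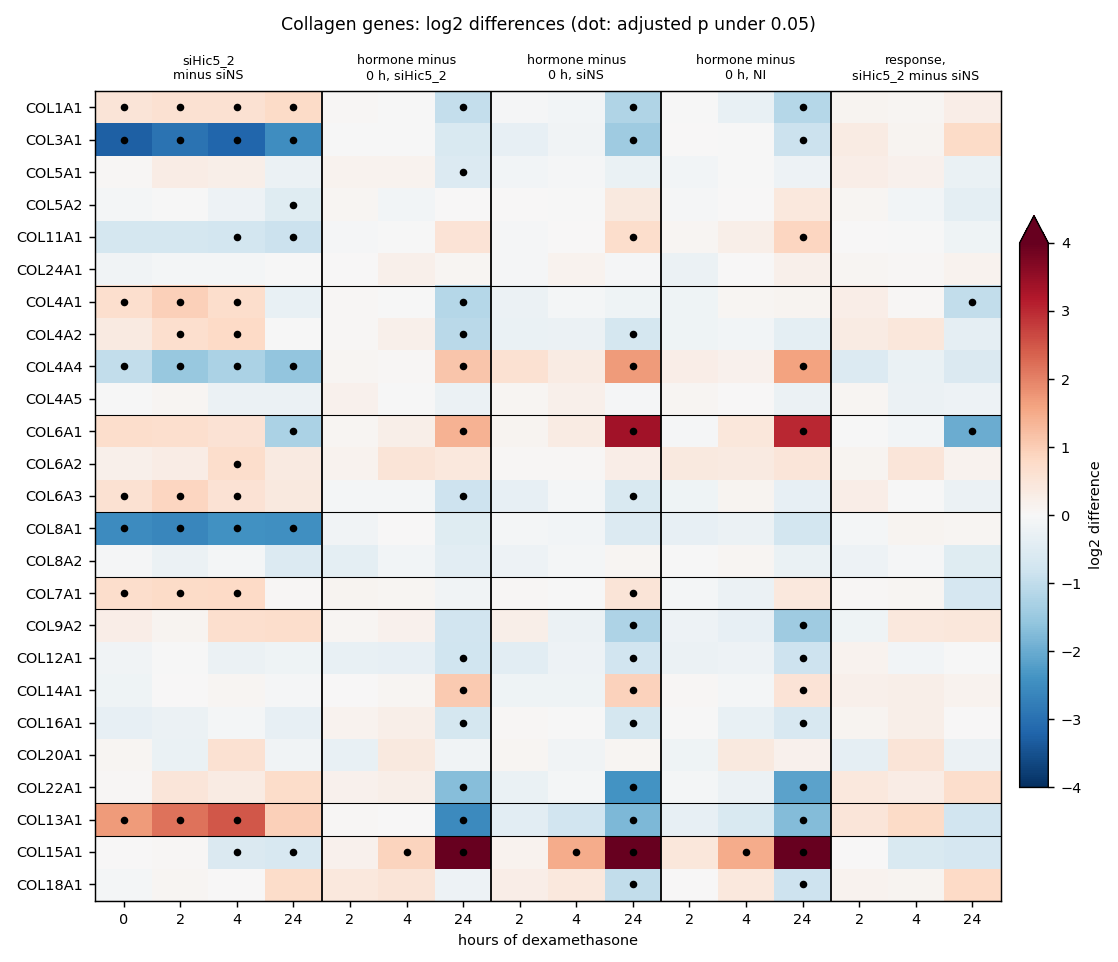
Log2 differences of the 25 measured collagen genes (rows, grouped by class) in each comparison (columns, with hours of dexamethasone), blue for lower and red for higher in the group named first, and dots for genes called. The color scale ends at 4, and COL15A1 at 24 h lies beyond it in all 3 states, at fitted values of 4.42, 5.09 and 4.78. The deep blue cells of COL3A1 and COL8A1 run through all 4 knockdown columns, and the 24 h hormone columns hold dots in every class but the short-chain collagens.

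Among the fibrillar collagens, COL3A1 and COL1A1 moved apart with the knockdown. COL3A1 encodes the chain of collagen III, a fibril-former of skin and vessels. Before hormone it read 6.30, 5.78, 5.44 and 6.27 in siHic5_2 arrays, 9.30, 9.38, 8.74 and 9.47 in siNS arrays, and 9.80, 9.34, 8.73 and 9.68 in NI arrays. Every siHic5_2 array lay more than 2 log2 units below every control array, and 1 of the 4 was above background. The difference from siNS was -3.28 ± 0.27 at 0 h (here and for every difference below, ± gives the standard error; adjusted p = 7.34e-12, limma) and -3.16 ± 0.27 at 4 h (adjusted p = 1.55e-11, limma). At 2 and 24 h no siHic5_2 array was above background, and COL3A1 was at least 6.66-fold and at least 3.14-fold lower.

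COL3A1 fell with hormone in the control cells. After 24 h it read 7.57, 7.53, 8.26 and 7.91 in siNS arrays, against 9.30, 9.38, 8.74 and 9.47 without hormone (log2 difference -1.41 ± 0.27, adjusted p = 4.27e-05, limma), and the groups did not overlap. In NI cells the difference was -0.86 ± 0.27 (adjusted p = 0.0099, limma), and the 24 h arrays overlapped with those at 0 h. The NI call ended without replicate 1 or replicate 4 of every group (adjusted p of at most 0.168, limma). In siHic5_2 cells the difference was not called, and with no array above background at 24 h it has no size. The difference between the siHic5_2 and siNS responses was not called (adjusted p = 0.321, limma) and has no size for the same reason.

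COL1A1, in contrast, was higher with siHic5_2 and fell with hormone. Before hormone it read 13.19, 13.43, 13.81 and 13.17 in siHic5_2 arrays, against 13.05, 13.06, 12.70 and 12.70 in siNS arrays. With 24 h of hormone it read 12.35, 12.44, 12.55 and 12.46 in siHic5_2 arrays, 11.97, 11.56, 11.46 and 11.70 in siNS arrays, and 11.65, 11.94, 11.42 and 11.85 in NI arrays. The siHic5_2 arrays lay above every siNS array at 0, 2 and 24 h and overlapped at 4 h, where siNS replicate 2 stood at 13.17 and its other 3 replicates at 12.60 to 12.66. The knockdown difference was 0.52 ± 0.15, 0.62 ± 0.15, 0.61 ± 0.15 and 0.78 ± 0.15 at 0, 2, 4 and 24 h (adjusted p = 0.00743, 0.0016, 0.00153 and 7.91e-05, limma). Without siHic5_2 replicate 3 the 0 h value was 0.38 and the call ended (adjusted p = 0.0638, limma). The fall after 24 h of hormone was -0.95 ± 0.15 in siHic5_2, -1.21 ± 0.15 in siNS and -1.14 ± 0.15 in NI cells, and in none of the 3 states did the hormone and no-hormone arrays overlap.

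The remaining fibrillar collagens moved less. COL11A1, a chain of the cartilage collagen XI, was lower with siHic5_2 at 4 h (-0.72 ± 0.27) and 24 h (-0.85 ± 0.27, adjusted p = 0.0158, limma) and higher after 24 h of hormone in siNS (0.70 ± 0.27) and NI cells (0.85 ± 0.27, adjusted p = 0.0113, limma). At 24 h it read 10.26 to 10.47 in siHic5_2, 11.03 to 11.57 in siNS and 10.88 to 11.32 in NI arrays, with no overlap between siHic5_2 and either control. The 4 h call ended in 5 of 8 fits that each left out 1 array (siHic5_2 replicates 2 and 3 and siNS replicates 1, 2 and 4), with values of -0.70 to -0.52. The 24 h call ended without siNS replicate 2 (-0.75, adjusted p = 0.0587, limma). The siNS hormone call ended in 4 of 8 such fits, with 0.47 (adjusted p = 0.21, limma) without siNS 0 h replicate 3. COL5A1, the main chain of collagen V, which controls the width of collagen I fibrils, fell in siHic5_2 cells at 24 h of hormone (-0.55 ± 0.15, adjusted p = 0.00423, limma). COL5A2, its partner chain and the gene next to COL3A1 on chromosome 2, was called lower with siHic5_2 at 24 h at -0.47 ± 0.18 with an adjusted p that rounds to 0.05 (limma), and the call ended in 5 of 8 fits that each left out 1 array. Its group means spanned 0.60 on the log2 scale over the whole study, against 4.09 for its neighbour COL3A1. COL24A1 was not called in any comparison, and its group means spanned 0.45.

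**Figure D2:**
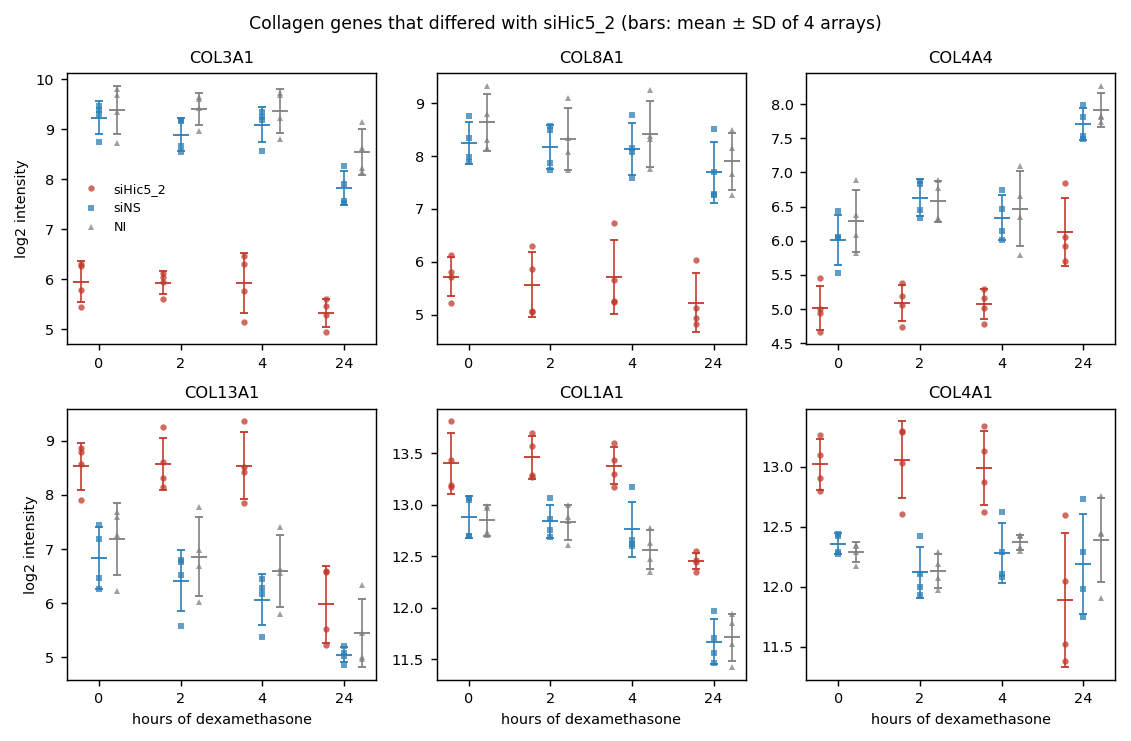
Log2 intensity on each array (points) of 6 collagen genes by hours of dexamethasone, with siHic5_2 in red, siNS in blue and NI in grey, and bars for the mean ± SD of 4 arrays. COL3A1 and COL8A1 lie lower in siHic5_2 than in both controls at every time, and COL13A1 lies higher at 0, 2 and 4 h.

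In collagen IV, COL4A1 and COL4A2 were both called higher with siHic5_2 at 2 and 4 h, and COL4A4 was lower. COL4A1 and COL4A2 encode the chains of the most widespread form of collagen IV and lie head to head on chromosome 13, where their starts in RefSeq (GRCh38.p14) are 127 bases apart. The promoter windows of both genes, each 250 bases before to 50 after the start, overlap in the 226 bases at chr13:110307108-110307333, printed here on the plus strand because the stretch belongs to both genes. Capitals mark the CCAAT box (CCAAT) and the GC box (GGGCGG), starting at bases 72 and 112 of the stretch.
COL4A1 and COL4A2: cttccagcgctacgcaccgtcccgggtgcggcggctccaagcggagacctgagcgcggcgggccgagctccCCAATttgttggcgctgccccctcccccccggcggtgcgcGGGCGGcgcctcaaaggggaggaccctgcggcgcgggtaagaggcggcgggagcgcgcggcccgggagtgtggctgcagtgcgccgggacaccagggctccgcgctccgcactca

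Promoter windows of 17 measured collagens were in the RefSeq table used, and 6 motifs were searched in them on both strands. A GC box was found in 12 of the 17 and in 45% of all 35116 windows, and a CCAAT box in 4 of the 17 (COL4A1, COL4A2, COL4A5 and COL11A1) and in 34.6% of all. The TATA box TATAAA was found in 3 (COL6A2, COL7A1 and COL13A1), against 11.5% of all windows. The half-site of the glucocorticoid response element, TGTTCT, was found in COL5A1 alone of the 17 and in 14.8% of all windows. The full palindromic glucocorticoid response element (which holds the half-site on each strand) and the AP-1 site TGANTCA were found in 0 of the 17, against 0.00285% and 7.71% of all. A match says that the letters are present, and their absence says only that they are not in this window.

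COL4A1 was higher with siHic5_2 until 4 h of hormone and no longer at 24 h. Before hormone it read 12.91, 12.80, 13.27 and 13.10 in siHic5_2 arrays, 12.29, 12.42, 12.44 and 12.27 in siNS arrays, and 12.34, 12.35, 12.29 and 12.17 in NI arrays. After 24 h the readings were 11.52, 12.05, 11.38 and 12.60 in siHic5_2 arrays, 12.29, 11.75, 11.98 and 12.73 in siNS arrays, and 12.44, 12.76, 11.91 and 12.45 in NI arrays. The siHic5_2 arrays stood above all control arrays at 0 h and mixed with them at 24 h. The knockdown difference was 0.66 ± 0.20, 0.94 ± 0.20 and 0.71 ± 0.20 at 0, 2 and 4 h (adjusted p = 0.0125, 0.00051 and 0.00634, limma) and -0.30 ± 0.20 at 24 h (adjusted p = 0.28, limma). The 0 h call ended without siHic5_2 replicate 3 (0.58, adjusted p = 0.0511, limma).

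The 24 h hormone response of COL4A1 was -1.13 ± 0.20 in siHic5_2 cells (adjusted p = 1.71e-05, limma), -0.17 ± 0.20 in siNS cells and 0.10 ± 0.20 in NI cells, the last 2 not called. Tested directly, the siHic5_2 response was lower than the siNS response, with a difference of -0.97 ± 0.29 (adjusted p = 0.0463, limma). This call ended in 11 of 16 fits that each left out 1 array, with values of -1.0 to -0.79 and an adjusted p of at most 0.126 (limma). The 5 arrays whose loss kept the call were siHic5_2 0 h replicate 2, siHic5_2 24 h replicates 2 and 4, and siNS 24 h replicates 2 and 3. It also ended when the 4 groups were fitted on their own (adjusted p = 0.177, limma).

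COL4A2 was also higher with siHic5_2 at 2 and 4 h. It averaged 10.37 ± 0.35, 10.41 ± 0.22, 10.58 ± 0.53 and 9.29 ± 0.33 in siHic5_2 arrays at 0, 2, 4 and 24 h, against 10.02 ± 0.30, 9.75 ± 0.47, 9.78 ± 0.38 and 9.31 ± 0.32 in siNS arrays (SD, n = 4 each). The knockdown difference was 0.35 ± 0.25 at 0 h (not called), 0.66 ± 0.25 at 2 h (adjusted p = 0.0429, limma), 0.79 ± 0.25 at 4 h (adjusted p = 0.0127, limma) and -0.02 ± 0.25 at 24 h (not called). The 2 h call ended in 5 of 8 fits that each left out 1 array (lowest value 0.44, without siNS replicate 4) and the 4 h call in 3 of 8 (siHic5_2 replicates 3 and 4, 0.69 each, and siNS replicate 3, 0.68). After 24 h of hormone it was lower with a log2 difference of -1.08 ± 0.25 in siHic5_2 cells (adjusted p = 0.000587, limma) and -0.71 ± 0.25 in siNS cells (adjusted p = 0.019, limma), and the NI difference of -0.39 ± 0.25 was not called. The siNS call ended without siNS 0 h replicate 1 (-0.63), siNS 0 h replicate 2 (-0.66) or siNS 24 h replicate 2 (-0.57). The difference between the siHic5_2 and siNS responses was not called (-0.36 ± 0.35, adjusted p = 0.738, limma).

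COL4A4, a chain of the specialised collagen IV of kidney and inner ear, was lower with siHic5_2 and higher with hormone. At 24 h it read 6.06, 5.92, 6.85 and 5.70 in siHic5_2 arrays, 7.99, 7.81, 7.54 and 7.49 in siNS arrays, and 8.27, 7.82, 7.74 and 7.81 in NI arrays, and siHic5_2 did not overlap with either control. The knockdown difference at 24 h was -1.58 ± 0.24 (adjusted p = 3.69e-06, limma). At 0, 2 and 4 h no siHic5_2 array was above background. COL4A4 stood at least 1.39-fold (2 h) and at least 1.06-fold (4 h) lower, and at 0 h it was called (adjusted p = 0.0022, limma) with no bound on its size. The 24 h hormone response was 1.70 ± 0.24 in siNS (adjusted p = 3.13e-07, limma) and 1.62 ± 0.24 in NI cells (adjusted p = 8.14e-07, limma). In siHic5_2 cells it was called too (adjusted p = 0.000347, limma), from a level not above background. COL4A5, a chain that joins COL4A4 in kidney, was not called in any comparison.

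In collagen VI, COL6A1 responded to hormone to a different extent in siHic5_2 and siNS cells. COL6A1, COL6A2 and COL6A3 encode the 3 chains of the usual collagen VI molecule, and COL6A1 and COL6A2 are neighbours on chromosome 21. COL6A1 at 24 h of hormone read 12.13, 10.83, 12.12 and 10.57 in siHic5_2 arrays, 12.82, 12.77, 12.70 and 12.46 in siNS arrays, and 12.60, 12.10, 12.24 and 12.38 in NI arrays. Before hormone it read 10, 9.62, 10.22 and 10.23 in siHic5_2 arrays, 9.42, 9.32, 9.19 and 9.37 in siNS arrays, and 9.83, 8.86, 9.04 and 9.55 in NI arrays. All 24 h arrays stood above all arrays without hormone in each state, and at 24 h the siHic5_2 arrays split, with replicates 1 and 3 more than 1 log2 unit above replicates 2 and 4. TGFB1I1 read 5.37, 4.91, 6.12 and 5.33 in these 4 arrays, none above background, and whether its level has a part in the split was not tested.

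The 24 h response of COL6A1 was 1.39 ± 0.29 in siHic5_2 cells (adjusted p = 0.000173, limma), 3.36 ± 0.29 in siNS cells (adjusted p = 1.14e-12, limma) and 3.01 ± 0.29 in NI cells (adjusted p = 2.56e-11, limma). The siHic5_2 response was lower than the siNS response, with a difference of -1.97 ± 0.41 (adjusted p = 0.00213, limma), and this held in all 16 fits that each left out 1 array, with values of -2.21 to -1.69. It ended when replicate 4 was left out of every group (-1.71, adjusted p = 0.0789, limma). Of 25 collagens, 2 were called lower (COL6A1 and COL4A1) and 0 higher in this test, against 3.52% of all genes called and 1.88% called lower. At 2 and 4 h the same test called 0 of 25 collagens (limma), with 0.135% and 0.454% of all genes called. The knockdown difference of COL6A1 was 0.69 ± 0.29, 0.67 ± 0.29 and 0.58 ± 0.29 at 0, 2 and 4 h, none called, and -1.27 ± 0.29 at 24 h (adjusted p = 0.000779, limma).

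Its partner chains were not called higher with hormone. After 24 h of hormone COL6A2 differed by 0.43 ± 0.25 in siHic5_2, 0.28 ± 0.25 in siNS and 0.49 ± 0.25 in NI cells, none called. COL6A3 was lower with a log2 difference of -0.82 ± 0.19 in siHic5_2 cells (adjusted p = 0.000749, limma) and -0.60 ± 0.19 in siNS cells (adjusted p = 0.0111, limma), and the NI difference of -0.33 ± 0.19 was not called. With siHic5_2, COL6A3 was higher by 0.62 ± 0.19, 0.87 ± 0.19 and 0.59 ± 0.19 at 0, 2 and 4 h, with no overlap of the groups at these times. Of these the 2 h call held in all fits that each left out 1 array, while the 0 h call ended without siNS replicate 3 (0.50) or 4 (0.52), the 4 h call without siHic5_2 replicate 3 (0.47) or siNS replicate 3 (0.53) or 4 (0.54), and the siNS hormone call without siNS 0 h replicate 2 (-0.47). COL6A2 was called higher with siHic5_2 at 4 h only (0.70 ± 0.25, adjusted p = 0.0286, limma), and the call ended in 6 of 8 such fits. Second probes of COL6A2 and COL6A3 gave 0.59 ± 0.30 and 0.49 ± 0.21 at 4 h, neither called. The second probe of COL6A3 was called higher with siHic5_2 at 0 h (0.61 ± 0.21) and 2 h (1.01 ± 0.21; adjusted p = 0.0362 and 0.000529, limma over all kept probes). It was called lower after 24 h of hormone in siHic5_2 (-0.88 ± 0.21) and siNS cells (-0.72 ± 0.21), and not in NI cells.

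Among the short-chain collagens, COL8A1 was lower with siHic5_2 at every time. COL8A1 and COL8A2 encode the chains of collagen VIII, which forms open networks in vessel walls and the cornea. Before hormone COL8A1 read 5.23, 6.13, 5.81 and 5.71 in siHic5_2 arrays, 7.99, 7.88, 8.35 and 8.76 in siNS arrays, and 8.15, 8.30, 8.79 and 9.33 in NI arrays. The siHic5_2 arrays lay below every control array at each of the 4 times, and 1 of 4 was above background at 0, 2 and 4 h and 0 of 4 at 24 h. The knockdown difference was -2.53 ± 0.37 at 0 h (adjusted p = 1.87e-06, limma), -2.60 ± 0.37 at 2 h, -2.43 ± 0.37 at 4 h and at least 2.87-fold at 24 h (adjusted p = 1.97e-06, limma). A second probe of COL8A1, above background on 2 of 4 siHic5_2 arrays and all 4 siNS arrays at each time, gave smaller differences of -1.38 ± 0.39, -1.16 ± 0.39, -1.09 ± 0.39 and -0.96 ± 0.39, the last not called (adjusted p = 0.0663, limma over all kept probes). COL8A1 was not called after hormone in any state. The brighter probe of COL8A2 was not called in any comparison, whereas its dimmer probe was called lower with siHic5_2 at 0, 2 and 4 h (adjusted p = 0.0183, 0.00961 and 0.0322, limma over all kept probes) and not at 24 h. That probe was called lower after 24 h of hormone in siNS (adjusted p = 0.00212, limma) and NI cells (adjusted p = 0.0413, limma). It was above background on 10 of 48 arrays, on no siHic5_2 array and on no array at 24 h. No size is therefore given, and its calls as lower partly follow from the filter.

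COL7A1 was higher with siHic5_2 before and early in hormone treatment. It read 7.94 to 8.36 in siHic5_2 and 7.16 to 7.72 in siNS arrays at 0 h, and the groups did not overlap at 0, 2 or 4 h. The difference was 0.71 ± 0.21, 0.77 ± 0.21 and 0.80 ± 0.21 (adjusted p = 0.00866, 0.00476 and 0.00298, limma), against 0.05 ± 0.21 at 24 h. These knockdown calls held in all fits that each left out 1 array. The 0 h call ended when replicate 3 was left out of every group (adjusted p = 0.057, limma). Without replicate 4 of every group the 2 h and 4 h calls ended (adjusted p = 0.0688 and 0.13, limma). In siNS cells COL7A1 was higher after 24 h of hormone by 0.51 ± 0.21 (adjusted p = 0.0473, limma), a call that ended in 5 of 8 fits that each left out 1 array, and differed by 0.42 ± 0.21 in NI and -0.15 ± 0.21 in siHic5_2 cells, neither called.

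The FACIT collagens called after 24 h of hormone were mostly lower. With siHic5_2 0 of 6 were called at any of the 4 times (limma), against 25.9%, 25.8%, 30.3% and 29.7% of all genes, with fitted differences between -0.33 and 0.74. After 24 h of hormone 1 was higher and 3 lower in siHic5_2 cells, and 1 higher and 4 lower in siNS and in NI cells, against 34.8%, 39.6% and 39.3% of all genes called in these states. COL22A1, a collagen found at tissue junctions such as that of muscle and tendon, read 5.53, 7.66, 6.24 and 7.64 in siHic5_2 arrays at 24 h, against 8.18, 8.45, 8.47 and 8.82 without hormone. In siNS arrays it read 5.81, 6.53, 5.27 and 6.51 at 24 h, against 8.31, 8.98, 7.72 and 8.74 without hormone. The 24 h arrays lay below the arrays without hormone in each state, NI included. The difference was -1.71 ± 0.48 in siHic5_2 (adjusted p = 0.00474, limma), -2.40 ± 0.48 in siNS (adjusted p = 8.86e-05, limma) and -2.15 ± 0.48 in NI cells (adjusted p = 0.000392, limma). The siHic5_2 call ended without replicate 1 of every group (adjusted p = 0.0753, limma). As for COL6A1, the 24 h siHic5_2 arrays nearest to the controls were replicates 1 and 3.

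COL9A2, a chain of the cartilage collagen IX, was lower after 24 h in both controls. It read 8.69, 8.23, 8.73 and 8.90 in siHic5_2 arrays at 24 h, 7.43, 8.23, 8.10 and 8.03 in siNS arrays, and 7.12, 8.05, 7.55 and 8.02 in NI arrays. The difference from 0 h was -1.22 ± 0.35 in siNS (adjusted p = 0.00431, limma) and -1.42 ± 0.35 in NI cells (adjusted p = 0.000991, limma), without overlap in either, and the siHic5_2 difference of -0.78 ± 0.35 was not called (adjusted p = 0.0786, limma). COL12A1 and COL16A1, which sit on fibrils of dense tissue and of skin, were lower in all 3 states, COL12A1 by -0.79 ± 0.24, -0.76 ± 0.24 and -0.83 ± 0.24 and COL16A1 by -0.69 ± 0.17, -0.69 ± 0.17 and -0.65 ± 0.17 in siHic5_2, siNS and NI cells. With the mean of the gene's probes in place of the brightest, COL12A1 in NI cells gave -0.30 and was not called (adjusted p = 0.241, limma). With a replicate number left out of every group, the COL12A1 call ended in each state. This was replicate 2 in siHic5_2 (adjusted p = 0.0645, limma), 2 or 4 in siNS (at most 0.0777) and 4 in NI cells (0.0686). COL14A1, which binds fibrils through decorin, was the FACIT collagen that rose: no array without hormone was above background, 3 siHic5_2, 2 siNS and 2 NI arrays were at 24 h, and it was at least 1.05-fold higher in siHic5_2 and at least 1.14-fold higher in siNS cells at 24 h. In NI cells it was called with no bound on its size (adjusted p = 0.0453, limma), and the call ended in 7 of 8 fits that each left out 1 array. COL20A1 was not called in any comparison.

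COL13A1, a collagen that spans the cell membrane and is found at focal adhesions, had the largest positive knockdown differences of the 25 collagens at 0, 2 and 4 h. Its promoter window, 250 bases before to 50 after the start at chr10:69801656-69801955 on the plus strand (RefSeq, GRCh38.p14), is shown for that reason. Capitals mark a match to the TATA box letters (TATAAA), which starts at base 15 of the window.
COL13A1: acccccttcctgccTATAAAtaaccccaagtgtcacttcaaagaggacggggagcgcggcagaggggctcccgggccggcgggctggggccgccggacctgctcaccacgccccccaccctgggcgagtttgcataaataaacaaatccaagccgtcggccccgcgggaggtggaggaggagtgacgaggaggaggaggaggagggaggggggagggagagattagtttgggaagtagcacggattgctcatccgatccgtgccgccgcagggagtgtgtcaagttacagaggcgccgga

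At 4 h of hormone COL13A1 read 7.85, 8.43, 8.52 and 9.36 in siHic5_2 arrays, 6.29, 6.18, 6.44 and 5.38 in siNS arrays, and 6.56, 6.63, 7.4 and 5.80 in NI arrays. The siHic5_2 arrays stood above every control array at 0, 2 and 4 h. The difference from siNS was 1.69 ± 0.39 at 0 h (adjusted p = 0.00118, limma), 2.17 ± 0.39 at 2 h (adjusted p = 5.65e-05, limma) and 2.47 ± 0.39 at 4 h (adjusted p = 6.67e-06, limma). At 24 h the level was 5.53, 6.58, 5.23 and 6.59 in siHic5_2 arrays, against 5.09, 4.87, 5.21 and 5.02 in siNS arrays, none of which was above background, and the difference was not called (adjusted p = 0.0677, limma). After 24 h of hormone COL13A1 was lower with a log2 difference of -2.55 ± 0.39 in siHic5_2 cells (adjusted p = 1.33e-06, limma), by at least 1.54-fold in siNS cells (adjusted p = 0.000264, limma) and with a difference of -1.74 ± 0.39 in NI cells (adjusted p = 0.00039, limma). The difference between these siHic5_2 and siNS responses was not called, and with siNS not above background at 24 h it has no size.

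COL15A1 had the highest hormone response of the 25 genes in each state. It encodes a multiplexin, a collagen of the basement membrane zone whose C-terminal fragment, restin, is known to restrain vessel growth. Its promoter window at chr9:98943657-98943956 on the plus strand (RefSeq, GRCh38.p14) is shown because of that response, with its GC box (GGGCGG, starting at base 141) in capitals; neither the glucocorticoid element nor its half-site is in it.
COL15A1: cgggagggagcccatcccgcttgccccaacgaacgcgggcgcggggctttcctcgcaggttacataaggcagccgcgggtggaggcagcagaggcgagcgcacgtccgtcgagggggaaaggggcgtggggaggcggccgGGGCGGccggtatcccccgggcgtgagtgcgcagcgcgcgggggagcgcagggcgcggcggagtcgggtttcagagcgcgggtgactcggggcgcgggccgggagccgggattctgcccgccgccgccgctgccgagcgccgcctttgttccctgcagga

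No array was above background for COL15A1 at 0 or 2 h in any state. At 4 h it read 5.74, 5.86, 5.45 and 5.99 in siHic5_2 arrays, 6.63, 6.60, 6.03 and 6.07 in siNS arrays, and 6.25, 6.59, 6.41 and 6.26 in NI arrays. By 24 h it had reached 9.25, 9.55, 9.33 and 9.10 in siHic5_2 arrays, 10.19, 10.18, 9.5 and 9.92 in siNS arrays, and 10.06, 9.72, 9.62 and 9.31 in NI arrays. All arrays of a state at 4 h lay above those at 0 h, and all arrays at 24 h above those at 4 h. At 24 h COL15A1 was at least 8.62-fold higher than at 0 h in siHic5_2 cells (adjusted p = 7.8e-24, limma), at least 14.2-fold in siNS cells (adjusted p = 5.05e-26, limma) and at least 10.4-fold in NI cells (adjusted p = 4.32e-25, limma).

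At 4 h of hormone COL15A1 was at least 1.16-fold higher than at 0 h in siNS and at least 1.06-fold higher in NI cells. In siHic5_2 cells the change was called (adjusted p = 0.000118, limma) although no array of either group was above background, so no fold is given. With siHic5_2 it was lower than in siNS cells at 24 h, with a difference of -0.64 ± 0.16 (adjusted p = 0.0023, limma), with overlapping groups, and by at least 1.06-fold at 4 h. The 4 h call ended with no background correction (adjusted p = 0.128, limma), with the other background correction (normexp without controls, adjusted p = 0.109, limma), with only the groups compared (adjusted p = 0.0538, limma) and without replicate 1 of every group (adjusted p = 0.0789, limma). With NI in place of siNS the 24 h difference was -0.37 and was not called (adjusted p = 0.0787, limma). The difference between the siHic5_2 and siNS responses was not called at any time. COL18A1, the other multiplexin and the source of endostatin, was at least 1.06-fold lower after 24 h in siNS cells and lower with a log2 difference of -0.83 ± 0.30 in NI cells (adjusted p = 0.0254, limma). The NI call ended without NI 0 h replicate 2 (-0.56), NI 24 h replicate 3 (-0.62) or NI 24 h replicate 4 (-0.79), and in siHic5_2 cells COL18A1 was not called.

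**Figure D3:**
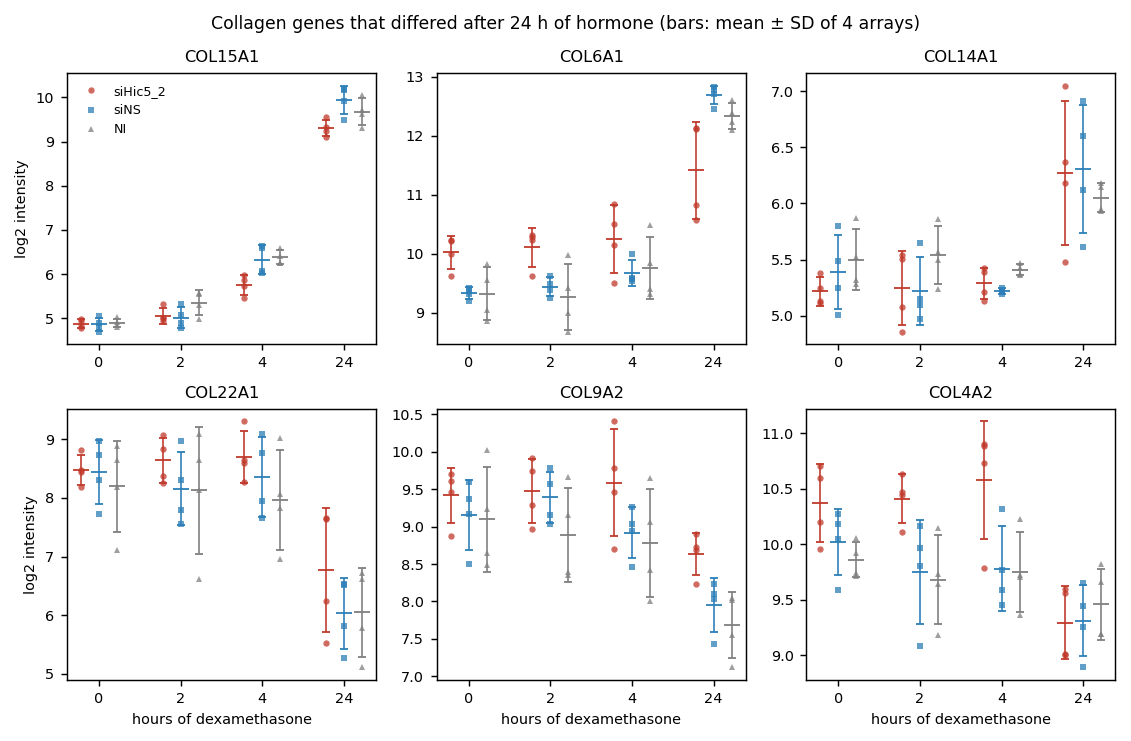
Log2 intensity on each array (points) of 6 collagen genes by hours of dexamethasone, with siHic5_2 in red, siNS in blue and NI in grey, and bars for the mean ± SD of 4 arrays. COL15A1 climbs in all 3 states from 4 h, and COL22A1 and COL9A2 stand lower at 24 h. COL6A1 climbs at 24 h, with the siHic5_2 arrays below every siNS array but overlapping with the NI arrays.

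The 24 h responses of the 25 collagens were alike in the 3 states, which share no arrays. However, same-numbered siNS and NI arrays deviated together and are not independent (correlations over 0.1 in 15 of 16 pairs of arrays). The Pearson correlation across genes was 0.93 between siHic5_2 and siNS (Spearman 0.87, the same sign in 21 of 25 genes), 0.93 between siHic5_2 and NI (Spearman 0.85, 22 of 25) and 0.99 between siNS and NI (Spearman 0.97, 22 of 25). These describe the 25 genes, which are not independent replicates, and COL15A1 lies far from the rest. Between siNS and NI cells over all times 0 of 25 collagens and 0% of all genes were called (limma), with 189 of all 11886 genes at an unadjusted p under 0.05, and the collagen differences lay between -0.43 and 0.24.

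**Figure D4:**
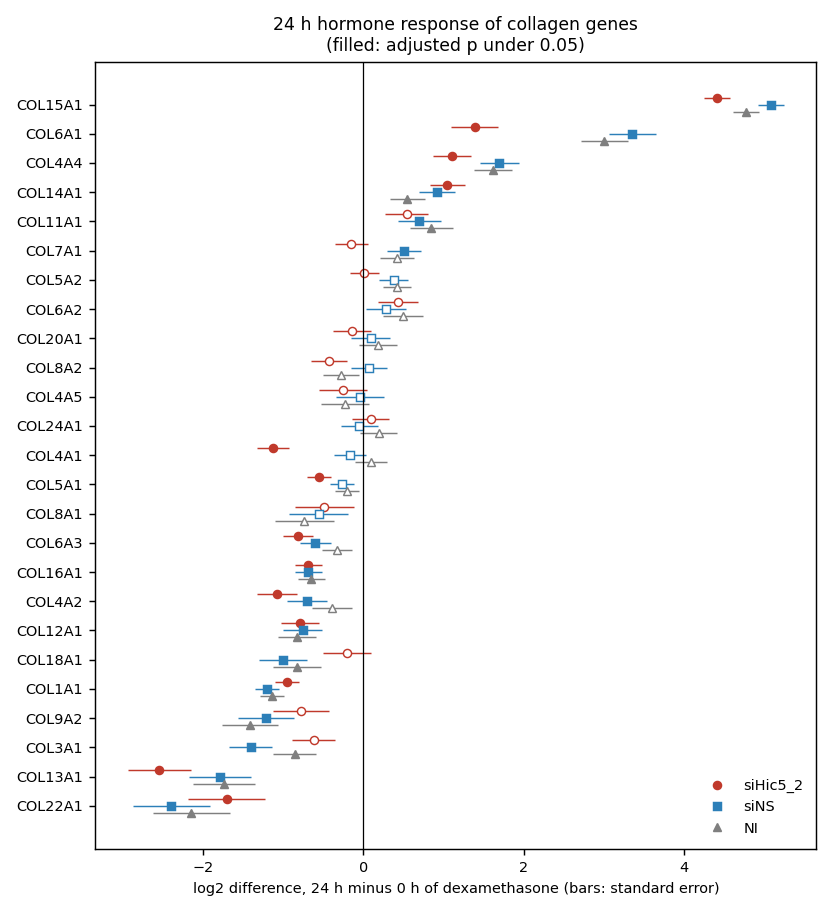
Log2 difference between 24 h and 0 h of dexamethasone (horizontal axis, bars for the standard error) of the 25 collagen genes, in siHic5_2 (red), siNS (blue) and NI cells (grey), filled where called. COL6A1 in siHic5_2 lies at 1.39, below 3.36 in siNS and 3.01 in NI, and COL4A1 in siHic5_2 lies at -1.13 with both controls near 0.

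Genes that process and bind collagen were set beside the collagens. Of 33 processing genes on the array (chaperones, hydroxylases, glycosyltransferases, propeptide proteases, cross-linking and export factors) 26 were kept, and with siHic5_2 those called higher and lower were 4 and 4 at 0 h, 4 and 4 at 2 h, 5 and 4 at 4 h, and 3 and 5 at 24 h. As shares these are 30.8%, 30.8%, 34.6% and 30.8%, against the 25.9%, 25.8%, 30.3% and 29.7% of all genes given above. SERPINH1 (HSP47), the collagen chaperone, and P3H1, a prolyl 3-hydroxylase, were chosen after their values were seen and were higher at all 4 times, SERPINH1 by 0.42 to 0.73 and P3H1 by 0.49 to 0.87. After 24 h of hormone those called higher and lower were 5 and 6 in siHic5_2, 6 and 6 in siNS, and 7 and 6 in NI cells, which is 42.3%, 46.2% and 50% of 26, against 34.8%, 39.6% and 39.3% of all genes.

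COLGALT1, the enzyme that adds galactose to hydroxylysine in collagen, was lower at all 4 times. At 24 h it read 9.78, 9.63, 9.62 and 9.48 in siHic5_2 arrays, against 10.93, 10.63, 11 and 10.81 in siNS and 10.79, 11.12, 10.70 and 10.90 in NI arrays, with no overlap. The differences from siNS were -1.20 ± 0.13, -1.21 ± 0.13, -0.95 ± 0.13 and -1.21 ± 0.13 (adjusted p = 6.95e-09, 6.41e-09, 6.49e-07 and 2.76e-09, limma). P3H2, the prolyl 3-hydroxylase known for acting on collagen IV, was lower at 0, 2 and 4 h by -0.89 ± 0.28, -0.98 ± 0.28 and -1.05 ± 0.28, without overlap. ADAMTS3, a procollagen N-propeptidase, stood at least 1.70-fold (2 h) and at least 1.67-fold (24 h) lower. FKBP10, an endoplasmic reticulum prolyl isomerase needed for collagen I cross-linking, was higher at 4 h by 1.19 ± 0.45 (adjusted p = 0.0396, limma), with overlapping groups.

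Of 20 collagen-binding matrix proteins 8 were kept, and with siHic5_2 those called higher and lower were 2 and 1 at 0 h, 3 and 1 at 2 h, 2 and 1 at 4 h, and 2 and 1 at 24 h. That is 37.5%, 50%, 37.5% and 37.5% of 8 genes, against 25.9%, 25.8%, 30.3% and 29.7% of all genes. BGN (biglycan), a small proteoglycan that binds collagen fibrils, was higher with siHic5_2 by 1.56 ± 0.49 at 2 h, 1.41 ± 0.49 at 4 h and 1.30 ± 0.49 at 24 h (adjusted p = 0.0149, 0.0251 and 0.0404, limma), and lower after 24 h of hormone in all 3 states, by -1.62 ± 0.49 in siHic5_2, -1.82 ± 0.49 in siNS and -1.55 ± 0.49 in NI cells. The knockdown groups overlapped at 4 h, and the hormone groups overlapped in siHic5_2 and NI cells. Within slides the siHic5_2 hormone difference ran from -2.83 to 0.48. At 24 h BGN was above background on 1 of 4 siNS and 2 of 4 NI arrays, so background limits these sizes. MATN2, a matrilin that links matrix networks, was lower with siHic5_2 at all 4 times (-1.07 ± 0.29, -1.10 ± 0.29, -1.10 ± 0.29 and -0.90 ± 0.29) and lower after 24 h of hormone in all 3 states.

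Of 11 collagen receptors on the array 10 were kept, and ITGA2 was the only one called with siHic5_2 at 0, 2 and 4 h. At 24 h 1 was called higher and 2 lower. The shares were 10% at 0, 2 and 4 h and 30% at 24 h, against 25.9%, 25.8%, 30.3% and 29.7% of all genes. ITGA2 and ITGA1 encode collagen-binding integrin subunits. ITGA2 before hormone read 10.11, 9.65, 10.16 and 10.60 in siHic5_2 arrays, 7.64, 7.21, 7.70 and 7.11 in siNS arrays, and 7.42, 6.91, 7.22 and 7.32 in NI arrays. With 24 h of hormone it was 7.30, 7.35, 7.12 and 8.05 in siHic5_2 arrays, against 7.57, 7.21, 7.56 and 7.18 in siNS arrays. The siHic5_2 arrays thus stood above all control arrays before hormone and mixed with siNS at 24 h. The knockdown difference was 2.72 ± 0.27, 3.23 ± 0.27 and 3.14 ± 0.27 at 0, 2 and 4 h (adjusted p = 8.15e-10, 1.61e-11 and 1.75e-11, limma) and 0.08 at 24 h, and the 24 h hormone response was lower than that of siNS, with a difference of -2.64 ± 0.38 (adjusted p = 9.36e-06, limma).

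ITGA1 was above background only in siNS and NI cells at 24 h, and passed the filter through these groups alone. There it read 7.78, 8.05, 8.15 and 7.85 in siNS arrays and 7.94, 8.10, 7.80 and 7.70 in NI arrays, against 5.50, 5.53, 5.86 and 4.92 in siHic5_2 arrays. It was at least 3.46-fold lower in siHic5_2 than in siNS cells (adjusted p = 2.93e-14, limma), and after 24 h of hormone at least 3.58-fold higher in siNS and at least 3.02-fold higher in NI cells. The difference between the siHic5_2 and siNS responses was called (adjusted p = 7.08e-09, limma) but has no size, because 3 of its 4 groups were not above background.

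**Figure D5:**
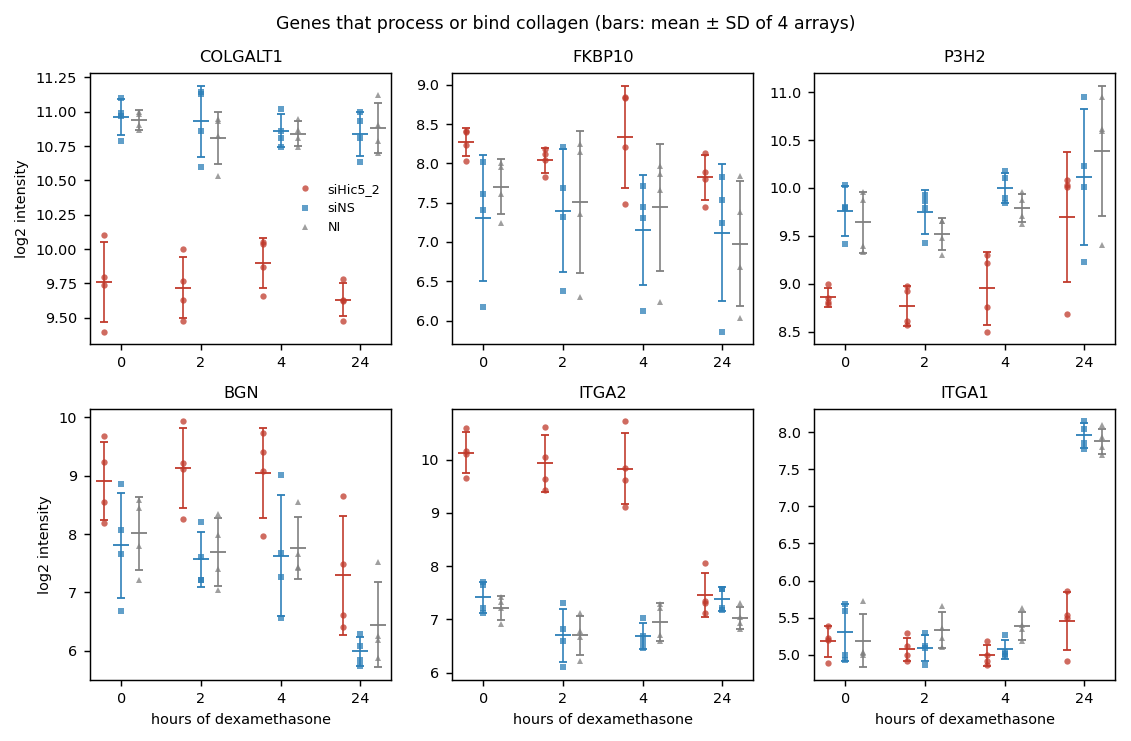
Log2 intensity on each array (points) of 6 genes that process or bind collagen, by hours of dexamethasone, with siHic5_2 in red, siNS in blue and NI in grey, and bars for the mean ± SD of 4 arrays. COLGALT1 lies lower in siHic5_2 at every time, ITGA2 lies higher at 0, 2 and 4 h, and ITGA1 stands apart only in siNS and NI at 24 h.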

How the data were processed

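RNA was measured in 48 samples on Illumina HT-12 v4 bead arrays. Unnormalized intensity and detection p-value columns were deposited per the file headers, and the authors' processed log2 values were deposited in a second table. R 2.15.3 and limma 3.14.4 were used for it, per the submitters' processing notes, with a normalization that the sources used here do not give. The deposited detection p-values stand under other arrays' names (0 of 48 columns matched their own intensities, 32 matched another array's), so they were recomputed from the 770 negative controls of each array.

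Intensities were normalized with neqc (offset 16, quantile, log2) in limma 3.58.1 under R 4.3.3. Probes with a detection p under 0.01 on at least 4 arrays were kept (20912 of 47323), the probe of highest mean stood for each gene, and 1 model of 12 group means with 36 residual degrees of freedom was fitted over 11886 genes. Symbols came from the platform annotation: it gave 1 symbol for 30113 probes, several for 8 and none here for 17202. Groups and replicate numbers came from the labels. Median array intensity was 133.6 to 193, and the 4 arrays per group limit the precision. The fit was tested on simulated data.

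The collagens, the partner lists and the rules were chosen with earlier results of these data known. Collagens called with an absolute log2 difference of at least 1 are given in full, and partner genes with at least 1 in a knockdown comparison are named. Alternatives were the authors' processed values, other background corrections, other filters and probe rules, NI as control, slide and replicate blocks, only the groups compared, and each replicate left out. Same-numbered arrays deviated together across hormone times within a state (correlations of 0.123 to 0.563 in siHic5_2, 0.22 to 0.721 in siNS and 0.235 to 0.73 in NI cells), so the labels' numbers pair the samples there. Between siHic5_2 and siNS the correlations were -0.177 to 0.107, so those share only a number. Between siNS and NI they were -0.0148 to 0.732, with 15 of 16 over 0.1.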

Additional observations from a re-analysis of the deposited data

Results flagged for a closer look

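In 7 of 240 groups of 4 arrays tested, 1 array stood apart from the other 3 by Dixon's test, which by chance flags about 1 in 20 groups. COL6A1 read 9.62 in siHic5_2 replicate 2 at 2 h (others 10.24 to 10.31) and 10 in siNS replicate 1 at 4 h (others 9.54 to 9.58). COL4A2 read 9.79 in siHic5_2 replicate 2 at 4 h (others 10.73 to 10.90). COL1A1 read 13.17 in siNS replicate 2 at 4 h (others 12.60 to 12.66), and COL4A4 read 8.27 in NI replicate 1 at 24 h (others 7.74 to 7.82). P3H2 read 8.68 in siHic5_2 replicate 1 at 24 h (others 10.01 to 10.08), and ITGA1 read 5.73 in NI replicate 2 at 0 h (others 4.99 to 5.03).

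Among the 12 collagens and 8 partner genes described by size, the 24 h hormone response differed between siHic5_2 and siNS cells for 4, each tested as an interaction in limma. Of all genes 3.52% were called in this test. The genes described were picked by their called differences in these data, for collagens with this test included. The count therefore partly follows from that choice. The log2 difference of the responses was -1.97 for COL6A1 (adjusted p = 0.00213, limma), -0.97 for COL4A1 (adjusted p = 0.0463, limma) and -2.64 for ITGA2 (adjusted p = 9.36e-06, limma). For ITGA1 the fitted value was -2.39 (adjusted p = 7.08e-09, limma), which is no measured size because 3 of the 4 groups were not above background.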

How the results depend on the processing

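Of 913 alternative values of the 84 called collagen differences with all arrays fitted or only the compared groups, 878 kept their call and 35 lost it, and of 1024 values with a replicate or array left out, 898 kept it and 126 lost it. In neither set did 1 reverse. In the first set 84 values came from the authors' processed values, which differed from the values used here by at most 0.263 on the log2 scale. All 84 kept their call, which with values so alike is little of a check. The number of collagens called at 4 h of hormone (1 in each state) was 0 in all 3 states with probes above background on at least 24 arrays, where COL15A1 is left out, and 2 in NI cells with no filter. For the 24 h difference in response (2 called) it was 1 with no filter, 1 with all kept probes tested and 1 with only the groups compared, and for processing genes with siHic5_2 at 0 h (8 called) it was 5 with only the groups compared. In the paired analysis, the replicate block gave 1 call in NI cells at 2 h (0 without it), and the replicate block within each state, chosen after seeing the data, gave 1 there and 2 at 4 h in siHic5_2 cells. Replicate blocks ended no collagen call. With slide as a block, 4 calls ended: COL11A1 with siHic5_2 at 4 h (-0.55, adjusted p = 0.173, limma), COL4A2 with siHic5_2 at 2 h (0.51, adjusted p = 0.179, limma), and COL14A1 (adjusted p = 0.16, limma) and COL18A1 (-0.56, adjusted p = 0.131, limma) after 24 h in NI cells. On every slide that held both groups, 58 of 58 called differences of the fully described collagens kept their sign. Only 1 to 4 slides held both groups of such a comparison, and their arrays are among those that gave the calls. This is therefore no independent check, and COL15A1 with siHic5_2 at 4 h came as near to 0 as -0.04.

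Leaving out each replicate in turn, the collagens called with siHic5_2 numbered 6 to 9 at 0 h, 7 to 10 at 2 h, 7 to 13 at 4 h and 6 to 9 at 24 h. At 24 h of hormone they numbered 12 to 14 in siHic5_2, 10 to 16 in siNS and 10 to 14 in NI cells, at 4 h 1 to 2 in siHic5_2 cells, and for the 24 h difference in response 0 to 3. Processing genes with siHic5_2 numbered 4 to 8 at 0 h and 5 to 10 at 2 h, and 7 to 11 after 24 h of hormone in siHic5_2 cells. The shares of all genes called in these fits, and under the alternatives above, were not computed. The ranges therefore show only how far the counts moved, and do not set collagens against other genes. Of the 84 calls, 67 held in every fit without a single array and 17 did not. Some of the 67 ended when a replicate number was left out of every group, and not all of these are listed above. COL4A4 with siHic5_2 at 0 h, without replicate 4, is an example (adjusted p = 0.0506, limma). The cause of these changes was not tested. A gene near background, such as COL14A1 or COL4A4, is limited by its signal.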
